A study of Mus musculus with 8 samples.

Results

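The proteasome subunit genes are the 49 protein-coding genes of the deposited chromatin table whose symbols begin with Psma, Psmb, Psmc, Psmd, Psme, Psmf or Psmg followed by a digit. They hold 453 of the 489637 regions of the table, against 17095 protein-coding genes in all. The members were 7 core alpha genes with 52 regions, 7 core beta genes with 110, 6 ATPase genes of the regulatory particle with 50, 11 other genes of that particle with 97, 7 assembly chaperones with 45, 5 immunoproteasome and interferon-inducible genes with 21, and 3 other activators or inhibitors with 69. Psmb11, a core subunit of the thymus, had 2 regions. Psmc3ip, which encodes a partner of an ATPase subunit known from meiosis, and Psme2b, a close copy of Psme2, had 7 regions together and were matched by name only. Psma8, a core subunit of the testis, had no region in the table.

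Chromatin accessibility was measured by ATAC-seq, a method that reads out where a transposase can cut DNA, in nuclei of mouse gastrocnemius, a calf muscle. All 8 libraries carry the genotype Cre+:iMSBmal1 fl/fl, so the Cre transgene and the floxed Bmal1 alleles are shared by both groups. The 4 Vehicle libraries were treated with vehicle and the 4 iMSBmal1KO libraries with tamoxifen, which induces the knockout, and the labels give a time of 6 months for all of them. Tamoxifen itself and the loss of Bmal1, a transcription factor of the circadian clock, cannot be told apart. The promoter that drives Cre, the time of day of collection and whether each library came from a separate animal are not given in the labels, so p-values measure only the spread between these libraries. The titles of the iMSBmal1KO libraries also carry the word Control.

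The proteasome degrades proteins tagged with ubiquitin. Its core particle is a barrel of stacked rings, with alpha subunits that form the gate and beta subunits that cut proteins, and the regulatory particle binds ubiquitin chains, unfolds the protein with a ring of ATPases and feeds it into the core. Under interferon, 3 inducible beta subunits replace the constitutive catalytic subunits to form the immunoproteasome, which favours peptides for antigen presentation. In skeletal muscle the ubiquitin-proteasome system is known for the breakdown of myofibrillar proteins during atrophy.

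In the RefSeq promoter windows of GRCm38.p6, which run from 250 bases before to 50 bases after a gene's start, 42 of the 49 members had an entry. The E-box CACGTG, the sequence that Bmal1 and its partner Clock are known to bind, was searched on both strands and stood in the windows of 4 members (9.52%) and in 8.91% of the windows of 17492 protein-coding genes. The 250 bases before the start of these 4 genes are shown with the E-box in capitals, 5′ to 3′ on the strand of the gene. They lie at chr9:54950609-54950858 (plus strand) for Psma4, a core alpha subunit, chr8:105938393-105938642 (minus strand) for Psmb10, an immunoproteasome subunit, chr5:123227940-123228189 (plus strand) for Psmd9, an assembly chaperone, and chr11:101315963-101316212 (plus strand) for Psme3, an activator of the nuclear proteasome.
Psma4: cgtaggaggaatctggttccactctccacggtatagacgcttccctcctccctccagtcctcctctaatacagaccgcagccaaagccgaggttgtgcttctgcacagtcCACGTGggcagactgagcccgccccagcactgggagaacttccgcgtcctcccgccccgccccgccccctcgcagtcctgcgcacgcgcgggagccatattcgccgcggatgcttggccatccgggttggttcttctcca
Psmb10: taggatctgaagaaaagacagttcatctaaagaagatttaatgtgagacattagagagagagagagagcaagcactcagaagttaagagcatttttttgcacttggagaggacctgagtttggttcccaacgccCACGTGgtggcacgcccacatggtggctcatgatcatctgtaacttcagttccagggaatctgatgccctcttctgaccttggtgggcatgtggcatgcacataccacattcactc
Psmd9: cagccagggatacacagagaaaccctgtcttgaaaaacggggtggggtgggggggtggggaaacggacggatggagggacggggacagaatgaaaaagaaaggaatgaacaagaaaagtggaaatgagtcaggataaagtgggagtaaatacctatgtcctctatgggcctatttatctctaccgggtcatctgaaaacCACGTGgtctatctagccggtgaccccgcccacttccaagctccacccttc
Psme3: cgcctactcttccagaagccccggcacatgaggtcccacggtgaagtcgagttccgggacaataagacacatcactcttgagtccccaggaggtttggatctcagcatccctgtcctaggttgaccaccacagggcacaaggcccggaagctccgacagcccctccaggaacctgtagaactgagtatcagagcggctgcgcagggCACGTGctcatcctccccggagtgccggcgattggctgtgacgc

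None of these 4 E-boxes overlapped a match of another motif searched. The E-box of Psma4 and that of Psme3 lay inside a region of the table, while those of Psmb10 and Psmd9 lay in none. The strongest region of Psmb10, at chr8:105936974-105937402 over an annotated start, held 78.2% of its signal and lay outside the sequence shown. The signal of the Psma4 region was 427, 478, 372 and 285 in Vehicle libraries 1 to 4 and 465, 524, 419 and 455 in iMSBmal1KO libraries 1 to 4. The values of the groups overlapped, with a difference of 0.28 ± 0.20 (log2, SE; adjusted p = 0.647, limma). For the Psme3 region the signal was 231, 246, 172 and 175 in Vehicle libraries 1 to 4 and 239.7, 293, 212 and 241 in iMSBmal1KO libraries 1 to 4, again with overlap, and the difference was 0.27 ± 0.21 (adjusted p = 0.67).

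The core of the antioxidant response element, TGACNNNGC, through which the Nrf transcription factors are known to raise proteasome genes, stood in 6 member windows (14.3%) against 14.8% of all windows. Among them were Psmb5 and Psmb6, both catalytic core subunits, whose promoters are shown with this motif in capitals. The 250 bases lie at chr14:54617996-54618245 (minus strand) and chr11:70525107-70525356 (plus strand).
Psmb5: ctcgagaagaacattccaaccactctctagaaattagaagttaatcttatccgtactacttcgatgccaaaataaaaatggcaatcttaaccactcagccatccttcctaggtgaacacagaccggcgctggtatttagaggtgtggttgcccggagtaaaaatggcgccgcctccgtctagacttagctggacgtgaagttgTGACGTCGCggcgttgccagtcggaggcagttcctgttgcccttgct
Psmb6: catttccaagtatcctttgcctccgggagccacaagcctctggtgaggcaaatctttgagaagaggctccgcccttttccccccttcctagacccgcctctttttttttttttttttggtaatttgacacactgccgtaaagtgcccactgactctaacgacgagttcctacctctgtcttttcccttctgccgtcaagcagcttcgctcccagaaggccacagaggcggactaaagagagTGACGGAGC

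The remaining motifs searched were CCAAT, the NF-Y box, found in 15 member windows (35.7%) against 42.3% of all windows, and a pair of forms bound by interferon-activated factors. TTCNNNGAA stood in 3 member windows (7.14%) against 8.92% of all, and GAAANNGAA in 7 (16.7%) against 9.43%. CCAAT was in the windows of 5 of the 7 core alpha genes and 1 of the 4 core beta genes with a window. The CCAAT matches of Psma6, from chr12:55384086, lay in no region, while its strongest region was at chr12:55398572-55399042. A match is a description of letters and does not show binding. The promoter of Psmb8, the immunoproteasome counterpart of Psmb5, is shown with TTCNNNGAA in capitals, and that of Psmf1, which had the smallest p among the members and held none of the searched motifs, is shown without capitals. They lie at chr17:34197945-34198194 (plus strand) and chr2:151741311-151741560 (minus strand).
Psmb8: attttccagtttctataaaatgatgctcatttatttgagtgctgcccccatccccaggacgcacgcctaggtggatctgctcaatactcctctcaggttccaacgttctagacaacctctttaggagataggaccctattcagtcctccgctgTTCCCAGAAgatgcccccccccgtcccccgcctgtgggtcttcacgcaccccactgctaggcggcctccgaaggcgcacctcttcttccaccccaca
Psmf1: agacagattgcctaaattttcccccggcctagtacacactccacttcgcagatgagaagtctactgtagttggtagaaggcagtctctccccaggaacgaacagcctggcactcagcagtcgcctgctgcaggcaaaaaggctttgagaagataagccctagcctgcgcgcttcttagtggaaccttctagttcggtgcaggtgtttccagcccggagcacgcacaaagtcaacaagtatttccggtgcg

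The libraries held between 4311107 and 29486044 read equivalents, the deposited signal divided by the step that stands for 1 read. Vehicle library 4 stood apart, with the lowest depth, 16.5% of its signal on the mitochondrial chromosome against at most 5.51% in the others, and 24.9% of regions at 0. Over promoter sums its correlation with the other libraries was 0.944 to 0.963, against 0.974 to 0.990 among those. The targeted gene, listed as Arntl, had a summed signal of 2688, 2248, 2557 and 1942 in Vehicle libraries 1 to 4 and 3023, 3421, 3154 and 3315 in iMSBmal1KO libraries 1 to 4. The groups did not overlap, but the difference of 0.46 ± 0.14 did not pass the threshold (adjusted p = 0.388). Of its 37 regions tested 1 passed, in a 5′ UTR exon at chr7:113250869-113251387, with a difference of 1.08 ± 0.21 (adjusted p = 0.0468), and accessibility at the gene is no check of its deletion. The markers of muscle fibres had summed promoter signals of 11919 to 20385 in Vehicle and 15682 to 18565 in iMSBmal1KO libraries. Markers of leukocytes and macrophages summed to 194 to 225 and to 167 to 213, and those of T and B cells to 57.2 to 69.9 and to 42.9 to 83.9. Markers of endothelial cells gave 165 to 222 and 162 to 209.7, those of fibro-adipogenic cells 407 to 608 and 464 to 605, and those of satellite cells 441 to 558 and 419.9 to 508. Smooth muscle and pericyte markers gave 156 to 191 and 134 to 221, and Schwann cell markers 181 to 368 and 336 to 457. Promoter regions were listed for 7 of 10 leukocyte and macrophage markers, Cd68, Adgre1 and Itgam being without one, and for 2 of 6 T and B cell markers, Cd3e, Cd3g, Cd79a and Ms4a1 being without one. No gene of the marker lists passed the threshold. In such bulk nuclei, fewer cells of a type and less accessible chromatin per cell cannot be told apart.

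Across the members the chromatin signal sat at the promoters. The strongest region of 45 of the 49 genes lay within 1000 bp of an annotated start, and that of 41 genes overlapped the start itself. The median member had 95.8% of its signal in promoter regions, meaning those within 1000 bp of a start, against 74.9% for the median gene tested. In 33 members this share was at least 90%. Psmb7 was an exception among the catalytic subunits, with 21.1% of its signal at the promoter and the rest spread over introns and an exon. Psma2 and Psma5, both core alpha subunits, had no promoter region of their own, because the table assigns the regions at their starts to the neighbouring genes Mrpl32 and 1700010K24Rik. At Psmc5 94.2% of the signal around the start is assigned to Ftsj3, and at Psmc2 58.6% to Dnajc2, and both are ATPase subunits. A start of another gene on the opposite strand lay within 1000 bp upstream of 7 of 42 members (16.7%), against 8.48% of 17492 genes. These pairs included Psmb9 with Tap1, a peptide transporter of antigen presentation, 226 bp apart, and Psma7 with Ss18l1, 19 bp apart. Where a region covers both starts of a pair, its signal cannot be credited to either gene alone.

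Per kb of covered promoter, the mean Vehicle signal was highest at Psme2, a subunit of the interferon-inducible activator, at 1451, followed by Psmd12, a scaffold subunit of the regulatory particle, at 986 and Psmb3, a structural core beta subunit, at 869.6. It was lowest at Psme2b, at 41.2, and Psmb11, at 51.3. Of all genes tested, 98.0% had a lower value than Psme2 and 3.63% a lower value than Psme2b. Because Psme2 and Psme2b are near copies and the treatment of reads that fit both is not given in the sources used here, their levels are uncertain. The median member exceeded 69.3% of genes, and 16 of 47 members exceeded at least 75% of them. Psme2 also had the highest summed promoter signal, 1622, 1649, 1293 and 1116 in Vehicle libraries 1 to 4 and 1449, 1657, 1367 and 1577 in iMSBmal1KO libraries 1 to 4, and the groups overlapped. The lowest sum was that of Psmc2, with 9.59, 14.4, 18.4 and 0 in Vehicle libraries 1 to 4 and 9.84, 7.53, 7.16 and 3.76 in iMSBmal1KO libraries 1 to 4, which holds the regions assigned to Psmc2 alone.

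No member passed the threshold of an adjusted p of 0.05 between the groups. A summed promoter signal was available for 47 members, and 45 of these passed the filter on low signal, all except Psmc2 and Psmb11. In limma on log2(sum + 1), fitted over 12977 genes, 0 of the 45 were called, where 16 genes in all (0.123%) were. At an unadjusted limma p under 0.05, 8 of the 45 were higher in iMSBmal1KO and 0 lower, beside 10.1% of all genes for the higher direction. In 43 of the 45 the difference was above 0, beside 77% of all genes, and the median was 0.28 against 0.16 over all genes. Above the median of all genes lay 35 of the 45. The level of all genes moved with the scaling and with Vehicle library 4. With scaling by total nuclear reads, 38 of the 45 members were above 0, beside 56.9% of all genes, and the medians were 0.16 and 0.04. Under loess scaling 34 were above 0, beside 50.8% of all genes, with medians of 0.07 and 0.0035. Without Vehicle library 4 the number was 40, beside 66.0% of all genes. Separation of the groups, every iMSBmal1KO library above every Vehicle library, was seen at Psmd6, Psmd12 and Psmg3, 3 of 45, beside 3.46% of all genes.

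**Figure D1:**
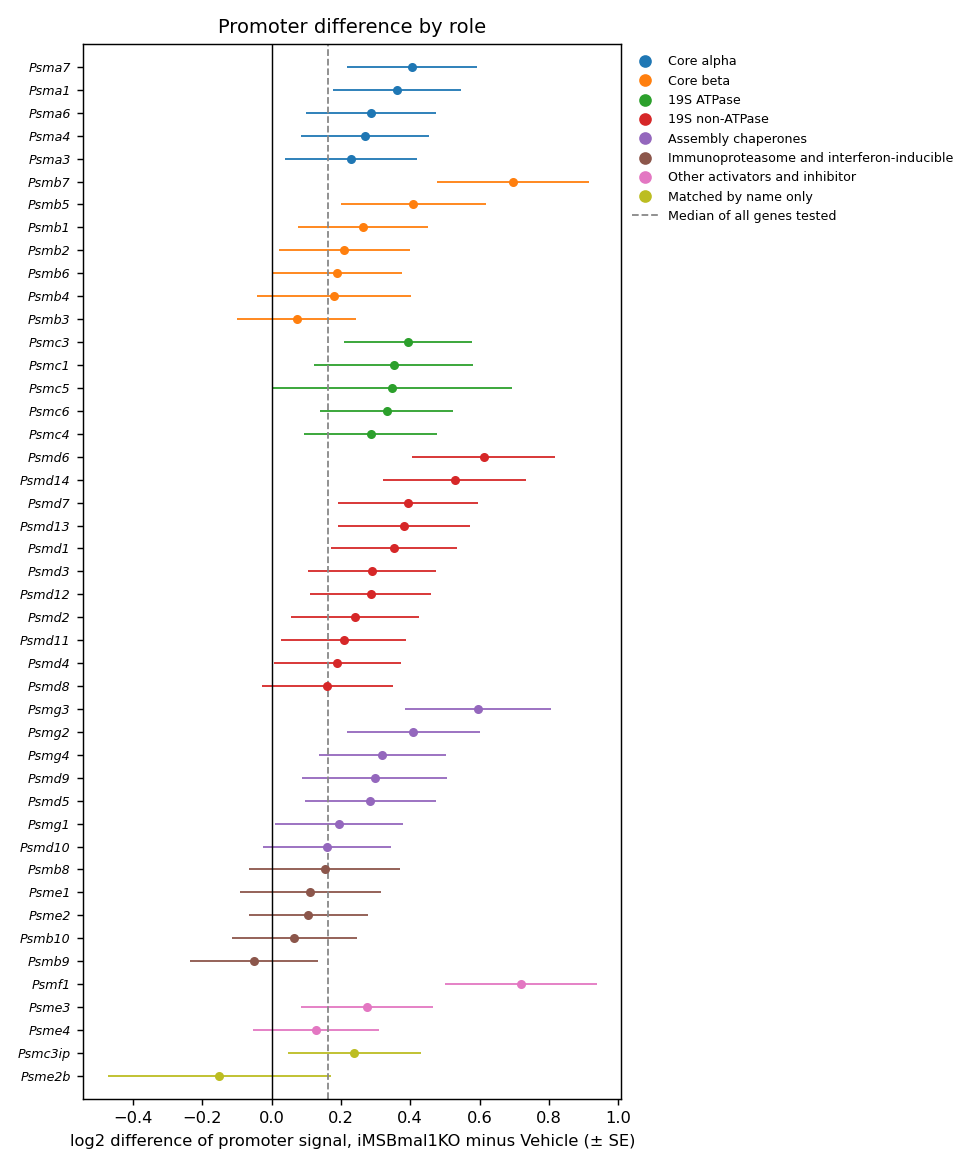
Log2 difference of summed promoter signal, iMSBmal1KO minus Vehicle, with its SE (x axis) for the 45 members tested (y axis), coloured by role, with the median of all 12977 genes tested (0.16) as a dashed line. The points run from -0.15 at Psme2b to 0.72 at Psmf1, and all 5 immunoproteasome and interferon-inducible genes lie left of the dashed line.

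Signal at the core alpha genes was at least as high on average in iMSBmal1KO libraries, with differences from 0.23 to 0.41 and a median of 0.29 over the 5 genes tested. Psma7, a subunit of the alpha ring, had 529, 558, 405 and 316 in Vehicle libraries 1 to 4 and 574, 619.7, 552 and 593 in iMSBmal1KO libraries 1 to 4. Vehicle libraries 3 and 4 were low and library 2 lay above iMSBmal1KO library 3, so the groups overlapped. Its difference of 0.41 ± 0.19 was the highest of the class and did not pass (adjusted p = 0.43, limma). Psma3, also of the alpha ring, had the lowest difference, 0.23 ± 0.19 (adjusted p = 0.601). Without Vehicle library 4 the difference of Psma3 was 0.04, and under loess scaling 0.05. Its promoter signal was 709, 647, 506 and 369 in Vehicle libraries 1 to 4 and 584, 732, 577 and 656 in iMSBmal1KO libraries 1 to 4, with Vehicle libraries 1 and 2 inside the iMSBmal1KO range.

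For Psma2 and Psma5 the regions within 1000 bp of the RefSeq start were summed whatever gene the table gave them, a reading chosen after the data were seen. Psma2 then had 442, 463, 313 and 222 in Vehicle libraries 1 to 4 and 448, 491, 444 and 470.4 in iMSBmal1KO libraries 1 to 4, where Vehicle library 2 alone reached into the iMSBmal1KO range. The difference was 0.42 ± 0.20 (adjusted p = 0.398), for regions that the table lists under Mrpl32. At Psma5 the sums were 497, 414, 364 and 369 in Vehicle libraries 1 to 4 and 489, 524, 377 and 385 in iMSBmal1KO libraries 1 to 4, which overlapped, with a difference of 0.11 ± 0.19 (adjusted p = 0.807). By this reading 41 members could be tested and 0 passed, beside 0.112% of 10761 genes. Psmc2 and Psmc5 gave 0.29 ± 0.19 (adjusted p = 0.503) and 0.28 ± 0.19 (adjusted p = 0.523) in the same sums.

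Of the core beta genes the 3 constitutive catalytic subunits differed by unequal amounts. Psmb7, with trypsin-like activity, had a promoter signal of 86.3, 96.6, 76.9 and 53.2 in Vehicle libraries 1 to 4 and 154, 154, 111 and 91.6 in iMSBmal1KO libraries 1 to 4. iMSBmal1KO libraries 1 to 3 exceeded the highest Vehicle value, 96.6, and library 4 did not. The difference of 0.70 ± 0.22 was the largest of the core genes and did not pass (adjusted p = 0.355). Summed over all regions of Psmb7 the difference was 0.23 ± 0.16 (adjusted p = 0.58, limma). Psmb5, with chymotrypsin-like activity, had 146, 165, 89.0 and 138 in Vehicle libraries 1 to 4 and 170.4, 228, 175 and 135 in iMSBmal1KO libraries 1 to 4. Here Vehicle library 3 was the lowest and the other Vehicle libraries exceeded iMSBmal1KO library 4, and the difference was 0.41 ± 0.21 (adjusted p = 0.458). The region that holds its antioxidant response element core, at chr14:54617975-54618285, differed by 0.56 ± 0.23 (adjusted p = 0.501). Psmb6, with caspase-like activity, had 351, 355, 250.4 and 319 in Vehicle libraries 1 to 4 and 378, 416, 346 and 309.8 in iMSBmal1KO libraries 1 to 4. Its iMSBmal1KO library 4 lay below 3 Vehicle libraries, and its difference was 0.19 ± 0.19 (adjusted p = 0.655). Psmb3 had the lowest difference of the core genes, 0.07 ± 0.17 (adjusted p = 0.866), with sums of 1324, 1183, 1082 and 919 in Vehicle libraries 1 to 4 and 1207, 1213, 1068 and 1214 in iMSBmal1KO libraries 1 to 4. Over the 7 core beta genes the median difference was 0.21.

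**Figure D2:**
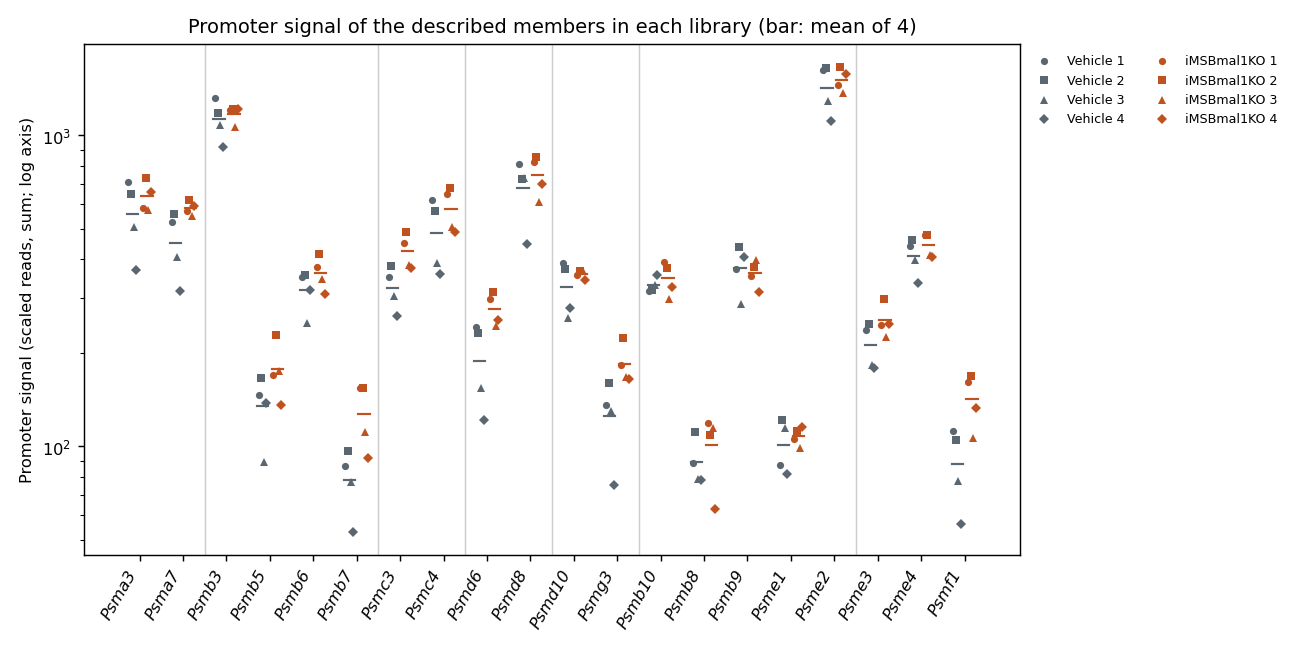
Summed promoter signal (scaled reads, log axis) of the 20 members described by a fixed rule and tested, with 1 symbol per library, Vehicle in grey and iMSBmal1KO in orange, and a bar at the mean of each group of 4. Vehicle libraries 3 and 4 (triangle and diamond) are low at most genes, as at Psmf1 with 77.5 and 56.3, while the groups lie on top of each other at Psmb9 and Psmb3.

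The 5 immunoproteasome and interferon-inducible genes had differences from -0.05 to 0.15, with a median of 0.11. Psmb8, the inducible counterpart of Psmb5, had 88.5, 111, 78.8 and 78.2 in Vehicle libraries 1 to 4 and 119, 109, 115 and 62.7 in iMSBmal1KO libraries 1 to 4, and iMSBmal1KO library 4 was the lowest of all 8 libraries. Its difference was 0.15 ± 0.22 (adjusted p = 0.763). Psmb9, which takes the place of Psmb6, had 373, 439, 287 and 406 in Vehicle libraries 1 to 4 and 354, 376, 397 and 314 in iMSBmal1KO libraries 1 to 4. The difference was -0.05 ± 0.19 (adjusted p = 0.918), and all iMSBmal1KO values lay within the Vehicle range. Psmb10, which takes the place of Psmb7, had 316, 318, 332 and 356 in Vehicle libraries 1 to 4 and 392, 375, 298 and 325 in iMSBmal1KO libraries 1 to 4. Vehicle library 4, the lowest of the 8 libraries at 32 of the 45 members tested, was the highest Vehicle library here, and the difference was 0.07 ± 0.18 (adjusted p = 0.885). Psme1 and Psme2, the subunits of the interferon-inducible activator, differed by 0.11 ± 0.20 (adjusted p = 0.822) and 0.11 ± 0.17 (adjusted p = 0.794). Psme1 had sums of 87.4, 121, 115 and 81.3 in Vehicle libraries 1 to 4 and 106, 112, 99.0 and 115 in iMSBmal1KO libraries 1 to 4, with all iMSBmal1KO values within the Vehicle range.

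At Psmb8 single regions of the promoter went different ways. The region that holds TTCNNNGAA, at chr17:34197994-34198310, had 28.8, 22.6, 19.1 and 21.9 in Vehicle libraries 1 to 4 and 15.8, 8.36, 14.3 and 16.3 in iMSBmal1KO libraries 1 to 4. Every iMSBmal1KO library lay below every Vehicle library there, with a difference of -0.74 ± 0.32 that did not pass (adjusted p = 0.522). That region also covers the RefSeq start of Psmb8, which follows chr17:34198194. The neighbouring region at chr17:34197655-34197847, over an annotated start of the gene, had 38.4, 58.6, 45.8 and 21.9 in Vehicle libraries 1 to 4 and 74.6, 71.6, 53.7 and 27.6 in iMSBmal1KO libraries 1 to 4 and a difference of 0.44 ± 0.34 (adjusted p = 0.669). These regions rest on few reads, in Vehicle library 4 on 7 reads each.

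Genes of the regulatory particle had a median difference of 0.34 over the 16 tested, and all 16 were above 0. Psmd6, a subunit of the lid, had 243, 231, 154 and 122 in Vehicle libraries 1 to 4 and 297, 313, 245 and 256 in iMSBmal1KO libraries 1 to 4. Every iMSBmal1KO library exceeded the highest Vehicle library, 243, though iMSBmal1KO library 3 did so by little. The difference of 0.61 ± 0.21 had an adjusted p of 0.394. In the sums by position, around the RefSeq start, its groups overlapped, with 182.9 in Vehicle library 2 and 181.9 in iMSBmal1KO library 4. Psmd8, also of the lid, had the lowest difference of the class, 0.16 ± 0.19 (adjusted p = 0.711), with 808, 724, 730.2 and 447 in Vehicle libraries 1 to 4 and 821, 851, 611 and 699 in iMSBmal1KO libraries 1 to 4. Vehicle library 4 alone lay far below the others there, and without it the difference was -0.03.

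Psmd14, the deubiquitinase of the lid that removes ubiquitin chains, had a promoter signal of 152, 190.1, 122 and 109 in Vehicle libraries 1 to 4 and 226, 254, 183 and 161 in iMSBmal1KO libraries 1 to 4, with Vehicle library 2 above iMSBmal1KO libraries 3 and 4. The difference was 0.53 ± 0.21 (adjusted p = 0.399). In its region over the start, at chr2:61711684-61711994, the signal was 124, 142, 76.9 and 75.04 in Vehicle libraries 1 to 4 and 161, 197, 159 and 143 in iMSBmal1KO libraries 1 to 4. These values did not overlap, and the difference was 0.70 ± 0.24 (adjusted p = 0.439). Summed over all its regions Psmd14 had 200.4, 221, 155 and 141 in Vehicle libraries 1 to 4 and 310.3, 302, 241 and 232 in iMSBmal1KO libraries 1 to 4. The groups were apart here as well, with a difference of 0.61 ± 0.18 (adjusted p = 0.389). Psmd12 was separated with a smaller difference, 0.29 ± 0.18 (adjusted p = 0.505), with 618, 650.4, 556 and 503 in Vehicle libraries 1 to 4 and 655, 788, 691 and 697 in iMSBmal1KO libraries 1 to 4.

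Summed over all regions, the ATPase genes differed by 0.05 (Psmc2) to 0.38 (Psmc3). Their promoter differences lay between 0.29 and 0.39 over the 5 tested, that of Psmc5 resting on 4 to 46 reads per library. Without Vehicle library 4 the promoter differences ran from 0.08 (Psmc1) to 0.30 (Psmc3). Psmc3 had the highest difference, 0.39 ± 0.18 (adjusted p = 0.43), with 349.6, 380.2, 304 and 263 in Vehicle libraries 1 to 4 and 452, 489, 383 and 375 in iMSBmal1KO libraries 1 to 4. Vehicle library 2 lay between the iMSBmal1KO libraries, so the groups overlapped. Psmc4 had the lowest, 0.29 ± 0.19 (adjusted p = 0.534), with 620.4, 570.2, 388 and 359.6 in Vehicle libraries 1 to 4 and 647, 677, 509 and 489 in iMSBmal1KO libraries 1 to 4. Here Vehicle libraries 1 and 2 exceeded iMSBmal1KO libraries 3 and 4.

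Among the assembly chaperones, which help to build the core or the base and leave the finished particle, the median difference was 0.30 over 7 genes. Psmg3, a chaperone of the core, had 136, 160.3, 129.6 and 75.04 in Vehicle libraries 1 to 4 and 183, 223, 167 and 164 in iMSBmal1KO libraries 1 to 4. Every iMSBmal1KO library exceeded every Vehicle library, iMSBmal1KO library 4 by little, and Vehicle library 4 was the lowest by far. Its difference was 0.59 ± 0.21 (adjusted p = 0.396). Psmd10, a chaperone of the base, had the lowest difference, 0.16 ± 0.19 (adjusted p = 0.706), with 390.1, 373, 259 and 278 in Vehicle libraries 1 to 4 and 357, 366, 366 and 342 in iMSBmal1KO libraries 1 to 4. The iMSBmal1KO values of this gene all lay between the Vehicle values.

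Psmf1, known as an inhibitor of the core particle in vitro, had the smallest p of the promoter sums. Its signal was 112, 105, 77.5 and 56.3 in Vehicle libraries 1 to 4 and 161, 169, 106 and 133 in iMSBmal1KO libraries 1 to 4. The highest Vehicle library, at 112, exceeded iMSBmal1KO library 3 alone. The difference was 0.72 ± 0.22 (adjusted p = 0.34, limma). Psme3 and Psme4, activators of the proteasome in the nucleus, differed by 0.28 ± 0.19 (adjusted p = 0.541) and 0.13 ± 0.18 (adjusted p = 0.763). Psme3 had 237, 248, 182 and 178 in Vehicle libraries 1 to 4 and 246, 298, 225 and 248 in iMSBmal1KO libraries 1 to 4, and Psme4 had 441, 461, 398 and 335 in Vehicle libraries 1 to 4 and 479.8, 480.0, 412 and 408 in iMSBmal1KO libraries 1 to 4, with overlap at both. Of the members matched by name only, Psmc3ip gave 0.24 ± 0.19 and Psme2b -0.15 ± 0.32, the latter from 9 to 44 reads per library. Psmb11, with sums of 8.53, 4.11, 16.5 and 21.9 in Vehicle libraries 1 to 4 and 7.70, 2.51, 10.7 and 6.27 in iMSBmal1KO libraries 1 to 4, was below the filter.

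Leaving out Vehicle library 2 ended this result for 5 members. Without it Psmf1 (0.82, adjusted p = 0.0142), Psmb7 (0.81, adjusted p = 0.0179), Psmd6 (0.73, adjusted p = 0.0197), Psmg3 (0.73, adjusted p = 0.0245) and Psmd14 (0.67, adjusted p = 0.0375) passed the threshold in limma, all higher in iMSBmal1KO. In the same fit 671 of all 12977 genes (5.17%) passed, 624 of them higher. Leaving out any other single library left 0 member promoters called. Without Vehicle library 4, which has the fewest reads, the median over the 45 members was 0.17 and that of all genes 0.07. In that fit 27 of the 45 differences were smaller by over 1.5 times, and those of Psmb3, Psmd8 and Psme2 changed sign.

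Set beside each other, the class medians of the promoter difference were 0.27 for the 12 core genes tested, 0.34 for the 16 genes of the regulatory particle and 0.11 for the 5 immunoproteasome and interferon-inducible genes, with 0.16 for all genes. Without Vehicle library 4 they were 0.15, 0.21 and 0.01, with 0.07 for all genes, and with total nuclear reads 0.14, 0.21 and -0.02, with 0.04 for all genes. Loess scaling gave 0.06, 0.17 and -0.08, with 0.0035 for all genes. The number above the median of all genes was 11 of 12, 15 of 16 and 0 of 5 with the deposited scaling. These medians are descriptions, and no test of the difference between classes was made. The median deviation of the core genes from their mean over the 8 libraries was 0.04, 0.10, -0.25 and -0.52 in Vehicle libraries 1 to 4 and 0.17, 0.32, 0.0057 and 0.08 in iMSBmal1KO libraries 1 to 4. The immunoproteasome and interferon-inducible genes stood at -0.07, 0.22, -0.17 and -0.25, and at 0.03, 0.15, -0.07 and -0.06. The core median minus the immunoproteasome median was 0.11, -0.12, -0.08 and -0.27 in Vehicle and 0.14, 0.16, 0.07 and 0.14 in iMSBmal1KO libraries, so that Vehicle library 1 lay within the iMSBmal1KO range and the other three below it. For the core minus the regulatory particle the values were -0.05, 0.02, 0.04 and -0.01, and -0.05, -0.02, 0.03 and 0.03, with full overlap.

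**Figure D3:**
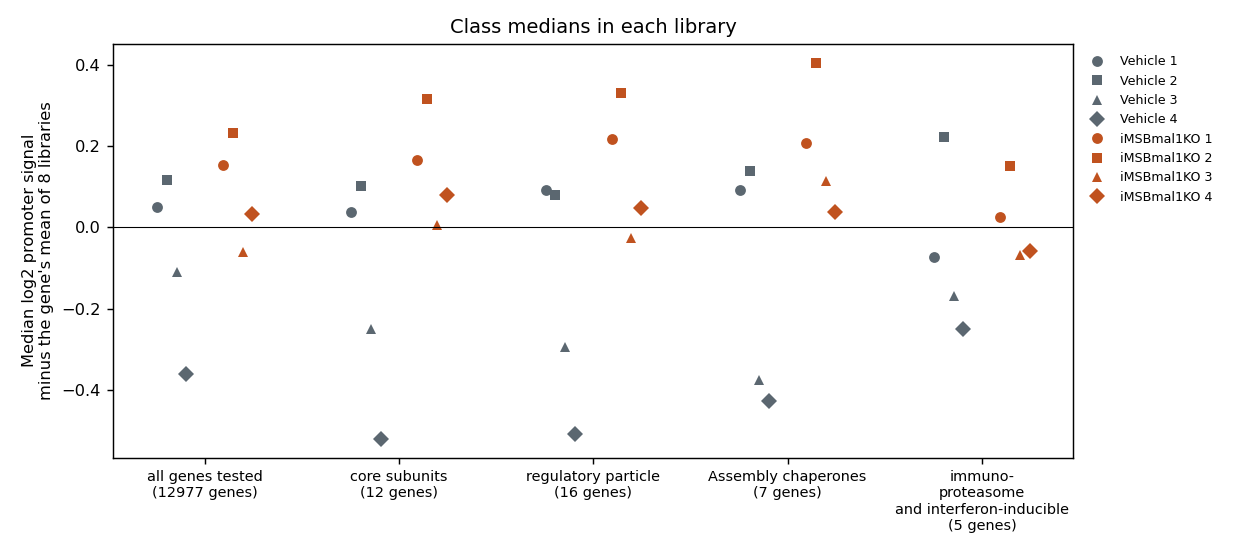
Median over the genes of a class of log2 promoter signal minus the gene's mean over 8 libraries (y axis), for all 12977 genes tested and 4 classes of members (x axis), with 1 symbol per library, Vehicle in grey and iMSBmal1KO in orange. Vehicle libraries 3 and 4 are the lowest in every class, and the core and regulatory classes spread further down (-0.52 and -0.51 in Vehicle library 4) than all genes (-0.36).

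Relative to the median of all genes, the 45 members together stood at 0.0063, 0.0036, -0.18 and -0.10 in Vehicle libraries 1 to 4 and at 0.02, 0.08, 0.04 and 0.03 in iMSBmal1KO libraries 1 to 4. Vehicle libraries 3 and 4 were low, while Vehicle libraries 1 and 2 lay nearer to the lowest iMSBmal1KO library. By library number, mitochondrial DNA gave 3.31%, 2.26%, 5.51% and 16.5% of the Vehicle signal, against 1.11%, 1.40%, 3.06% and 2.70% of the iMSBmal1KO signal, highest in Vehicle libraries 4 and 3. Its part in these differences was not tested.

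At the level of single regions 146 of the 453 member regions passed the filter and 0 were called, beside 110 of all 124901 regions tested (0.0881%). At an unadjusted limma p under 0.05, 18 were higher and 4 lower in iMSBmal1KO, beside 6.59% of all regions for higher and 2.63% for lower. The groups were apart with higher iMSBmal1KO values in 7 of the 146, beside 3.62% of all regions, and with lower values in 3, beside 1.87% of all regions. The 86 regions in promoters had a median difference of 0.27 and the 60 outside promoters one of 0.19, against 0.12 over all regions. Without Vehicle library 4 these medians were 0.16, -0.01 and 0.04.

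Outside promoters the smallest p among higher regions belonged to Psma3, in a 5′ UTR exon at chr12:70978471-70978631, with 30.9, 48.3, 17.2 and 18.8 in Vehicle libraries 1 to 4 and 82.2, 40.1, 52.5 and 52.7 in iMSBmal1KO libraries 1 to 4. Vehicle library 2 exceeded iMSBmal1KO library 2, and the difference was 1.03 ± 0.33 (adjusted p = 0.398). Next came intron 3 of Psme4, at chr11:30799663-30799911, with 40.5, 58.6, 25.4 and 12.5 in Vehicle libraries 1 to 4 and 53.5, 68.6, 69.2 and 52.7 in iMSBmal1KO libraries 1 to 4 and a difference of 1.00 ± 0.36 (adjusted p = 0.466). The end of Psmd3, a subunit of the lid, at chr11:98693989-98694088, had 10.7, 7.19, 15.9 and 3.13 in Vehicle libraries 1 to 4 and 20.1, 25.1, 17.9 and 13.8 in iMSBmal1KO libraries 1 to 4, a low signal with a difference of 1.13 ± 0.42 (adjusted p = 0.472). Lower in iMSBmal1KO, with no adjusted p under the threshold, were intron 6 of Psmb7 at chr2:38601034-38601189 (-0.77 ± 0.33, adjusted p = 0.518) and the ends of Psmd4, a ubiquitin receptor, at chr3:95033601-95033812 (-0.71 ± 0.33, adjusted p = 0.536) and Psmd11 at chr11:80469256-80469419 (-0.75 ± 0.37, adjusted p = 0.544). The Psmb7 intron had 40.5, 16.4, 45.1 and 28.1 in Vehicle libraries 1 to 4 and 16.3, 19.2, 21.5 and 13.8 in iMSBmal1KO libraries 1 to 4, so within this gene an intron and the promoter differed in sign.

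Summed over all regions of a gene, 48 of the 49 members were tested and 0 called, beside 18 of 15438 genes (0.117%). At an unadjusted limma p under 0.05, 9 were higher and 0 lower, beside 8.57% of all genes for the higher direction. Besides Psmd14, Psmf1, Psmd6 and Psmg3 these were Psmc3, Psma7, Psma1, Psmd13 and Psmd1. The median was 0.25 against 0.12 for all genes.

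No gene of 4 other lists of the pathway passed. Of 17 proteasome partners, such as deubiquitinases and shuttle factors that bind the particle, 15 were tested, all 15 had differences above 0 (0.12 to 0.60, median 0.29), and 0 passed. For the 8 regulators of proteasome transcription 7 were tested, with a median of 0.07 and 0 passing. The 19 ubiquitin and muscle ligase genes gave 17 tested, a median of 0.22 and 0 passing, and the 12 genes of antigen presentation and interferon gave 11 tested, a median of 0.10 and 0 passing. Over all genes tested the median was 0.16 and 77% were above 0. At an unadjusted limma p under 0.05 the counts in the 4 lists were 2, 0, 3 and 0, all higher in iMSBmal1KO, beside 10.1% of all genes. With total nuclear reads the medians of the 4 lists, in the same order, were 0.16, -0.06, 0.09 and -0.02, and under loess scaling 0.11, 0.03, 0.08 and -0.11, so that the sign for the regulators of transcription and for antigen presentation turned with the scaling.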

How the data were processed

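The authors deposited 1 table with a signal value per region and library and gene annotation, scaled so that values are whole multiples of a step per library in 98.3% to 99.8% of cases, within 0.02 reads. The submitters' processing notes name Partek, Bowtie2, MACS2 and DESeq2 and the builds mm10 and GRCm39, with no role or version. All 49 member genes overlapped their positions in GRCm38.p6. Removal of duplicates and the shift of reads for the transposase are not given in the sources used here. All 8 value columns matched a library, and 0 columns of values were left out. Intervals of the table were read as counted from 1.

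A region was tested if its signal, scaled to a library of median depth, came to at least 10 reads in 4 or more libraries, and if it held 15 or more unscaled reads over all of them. Promoter sums took regions within 1000 bp of an annotated start, and gene sums all regions of a gene. Differences came from limma 3.58.1 (R 4.3.3) on log2(signal + 1), with the trend and robust options and group as the only term, over all features, with Benjamini-Hochberg adjustment and a threshold of 0.05. A difference on this scale understates the change of low features. Levels were compared between genes per kb of covered promoter. Precision follows depth: the median member promoter held 96 reads in Vehicle library 4 and 986 in iMSBmal1KO library 1. The members and lists were chosen with earlier results of these data known. Named were the catalytic, inducible, activator and inhibitor genes, the extremes of difference, p and signal per class, and the regions outside promoters with the smallest p. Psma1, Psma2, Psma4, Psma5, Psma6, Psmb2, Psmc1, Psmc5, Psmd1, Psmd9, Psmd12, Psmd13, Psmd14 and Psmg1 were named outside that rule, after their values were seen. So were the members matched by name only. The fit was run on simulated reads drawn independently for each feature, which gives no check of it under shifts shared within a library. Alternatives were other scalings, pseudocounts, filters and windows, limma-voom, a block by replicate number, leaving out each library and, chosen after seeing the data, promoters by position. Tables and figures used Python 3.11.15, pandas 2.3.3 and matplotlib 3.10.9.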

Additional observations from a re-analysis of the deposited data

Results flagged for a closer look

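At the promoter of Psmb3, a structural subunit of the core beta ring, iMSBmal1KO library 3 had a summed signal of 1068, apart from the other iMSBmal1KO libraries, which lay between 1207 and 1214. Its gap to the nearest of them was 0.953 of the range of the group, above Dixon's critical value for 4 libraries. The value lies inside the Vehicle range of 919 to 1324. Among 44 groups of 4 libraries examined this was 1 flag, where chance gives about 1 in 20 groups.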

How the results depend on the processing

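The count of member regions called was 0 under every alternative run, and that of gene sums was 0 except 1 (Psmd14) with the replicate block. Whether the replicate numbers pair the libraries was not settled. Deviations of same-numbered libraries correlated at -0.17, 0.32, 0.01 and 0.03, beside -0.23 to 0.18 for pairs with different numbers. The median promoter deviation of all genes was 0.05, 0.12, -0.11 and -0.36 in Vehicle libraries 1 to 4. In iMSBmal1KO libraries 1 to 4 it was 0.15, 0.23, -0.06 and 0.03, so library 2 was the highest of each group. With the number as a block 4 member promoters passed (Psmf1, Psmd6, Psmb7 and Psmg3). In that fit 231 promoters of all genes passed, against 16 in the fit without the block. Gene sums of all genes passed 129 times with the block against 18 without. Leaving out each library gave 0 to 5 member promoters called, and 5 to 671 of all genes. The median of the immunoproteasome genes was -0.079 under loess scaling, which moved the median of all genes from 0.16 to 0.0035. With total nuclear reads it also turned negative, at -0.022. The median of the core genes fell from 0.27 to 0.059 under loess scaling and that of the regulatory particle genes from 0.34 to 0.17. The SD of these class medians between replicates was 0.22 and 0.24. It describes the spread of single libraries, not the error of a difference between groups.

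Of the 45 members, 9 changed sign under loess scaling, 5 with total nuclear reads and 1 with TMM factors, none of them past the threshold. The values below are those of genes named by rule, so Psmb2 and Psmg1, which changed sign under loess scaling, are not among them. With total nuclear reads they were -0.062 for Psmb10, -0.057 for Psmb3, -0.016 for Psme1, -0.022 for Psme2 and -0.00019 for Psme4. Under loess scaling they were -0.16 for Psmb10, -0.025 for Psmb3, -0.038 for Psmb6, -0.025 for Psmb8, -0.067 for Psmd10, -0.079 for Psme1 and -0.083 for Psme4. Psmb9 was 0.0028 with TMM factors. Leaving out each library gave -0.022 to 0.15 for Psmb3, -0.17 to 0.029 for Psmb9, -0.027 to 0.26 for Psmd8 and -0.0038 to 0.18 for Psme2. The cause was not tested. Of the other values, 391 kept their direction and side of the threshold and 8 passed it, those of Psmb7, Psmd6, Psmf1 and Psmg3 with the block and without Vehicle library 2. A planned edgeR fit was not run, because whole reads could not be recovered for all values. In Vehicle library 4 the median member promoter rests on 96 reads, which limits the differences that can be seen.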

Other observations

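Single promoter regions with all iMSBmal1KO libraries below all Vehicle libraries, none of them past the threshold, were found at 3 members, 1 region each of the 86 promoter regions tested, beside 1.87% of all 124901 regions. Besides the Psmb8 region these were a region of Psmb10 at chr8:105938136-105938255, with 12.8, 13.4, 13.3 and 12.5 in Vehicle libraries 1 to 4 and 7.28, 10.04, 10.7 and 7.53 in iMSBmal1KO libraries 1 to 4 (adjusted p = 0.648, limma), and one of Psmc3ip at chr11:101095200-101095304, with 23.5, 24.7, 17.2 and 18.8 against 15.8, 15.9, 10.7 and 8.78 (adjusted p = 0.536). Both are low in signal beside the summed promoters of these genes.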
